A study of Mus musculus with 8 samples.

Results

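The data follow 9 genes that carry or restrain cytokine signals through the cell types of cultured mouse islets. They encode the Janus kinases *Jak1* and *Jak2*, the signal transducers *Stat2* and *Stat3*, the feedback inhibitors *Socs1*, *Socs2*, *Socs3* and *Cish*, and the interferon receptor inhibitor *Usp18*. They were taken by symbol from the 30406 genes that all libraries list. Islets of male C57BL/6 mice (C57BL6/J in the study's methods) were pooled for each of 2 replicates and divided over 4 conditions, which gave 8 single-cell RNA libraries. Intact islets were cultured for 18 h without treatment, with the cytokines IL-1β and IFN-γ, with both cytokines and NMMA, or with NMMA alone. NMMA (N-monomethyl-l-arginine) inhibits nitric oxide synthase, the enzyme that cytokines induce in β-cells, and the comparison of cytokines with and without NMMA asks which changes depend on nitric oxide. A replicate number marks 1 pool of islets and thus pools animals.

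In this pathway a cytokine receptor activates the Janus kinases bound to it, the kinases phosphorylate STAT proteins, and the STATs enter the nucleus to switch on target genes. IFN-γ signals through JAK1 and JAK2, and STAT2 is part of the complex that drives interferon-stimulated genes. SOCS1 and SOCS3 restrain the kinases as feedback inhibitors, whereas SOCS2 and CISH are best known as restraints on growth hormone and prolactin signals.

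The libraries held 26549922 to 50731370 unique molecular identifiers (UMIs), and 10876 of 17426 barcodes passed the filters. Raw UMIs were summed over the cells of a class in each library, for 6374 β-, 670 α- and 328 δ-cells, 345 macrophages, 283 endothelial and 215 mesenchymal cells. Each class held UMIs for all of its defining markers in every library, except that δ- and mesenchymal cells lacked 1 in some. The classes were named from these markers and any UMI in a sum counted, so this is no separate check of identity. Any pair of libraries shared at most 2 cell barcodes. With cytokines, 1 δ-cell library held 8 cells and was left out, so δ-cells with cytokines rest on 1 library of 11 cells. All 49 α-cells of cytokines replicate 1, and 58 of 73 of replicate 2, lay in a cluster led by the heat shock gene *Hspa1a*. The α-cell marker score of that cluster, a mean of standardised marker levels, was 0.0236, barely enough for the name. The other α-cell clusters scored 0.58 to 1.32, so the identity of the *Hspa1a*-led α-cells is less firm. In macrophages, the summed β-cell markers stood at 18570 to 67500 CPM of total UMIs in the 4 libraries without cytokines and 2318 to 6531 in the 4 with them, and their part in the results was not tested. Levels are given in CPM, UMI counts relative to the size of the library, scaled within a class by the trimmed mean of M-values (TMM). A gene is called where edgeR's quasi-likelihood test gave a Benjamini-Hochberg adjusted p under 0.05 over all genes tested in that class. The SE of a log2 difference was derived from the F statistic of that test. Its spread is estimated over all libraries of the fit, so an SE is not the spread between the 2 libraries of a group. The comparisons share libraries, so their results are not independent of each other. Whether groups of 2 libraries overlap is given as a description only, and the share of all genes that separate in this way was not counted.

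The sequences before the starts of *Socs1* and *Stat2*, which had the largest rises in β-cells, are shown because both hold the core of the interferon-stimulated response element (ISRE), written as GAAA, any 2 bases and GAAA and searched on both strands. Each is the 250 bases before the RefSeq start (GRCm38.p6), on the gene's own strand, with matches in capitals. That of *Socs1* is chr16:10785537-10785786 (minus strand), next to the gene at chr16:10782240-10785536. That of *Stat2* is chr10:128270248-128270497 (plus strand), upstream of the gene at chr10:128270559-128292849.
Socs1: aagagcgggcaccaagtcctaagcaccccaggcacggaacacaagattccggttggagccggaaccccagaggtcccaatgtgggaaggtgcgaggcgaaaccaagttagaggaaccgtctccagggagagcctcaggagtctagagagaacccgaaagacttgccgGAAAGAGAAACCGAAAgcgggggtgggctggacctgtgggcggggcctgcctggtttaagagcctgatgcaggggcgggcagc
Stat2: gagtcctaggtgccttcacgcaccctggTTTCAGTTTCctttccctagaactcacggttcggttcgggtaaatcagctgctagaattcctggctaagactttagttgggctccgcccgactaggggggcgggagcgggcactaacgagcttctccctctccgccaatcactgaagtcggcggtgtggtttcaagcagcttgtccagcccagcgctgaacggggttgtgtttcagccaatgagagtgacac
The capitals in *Socs1* are 2 overlapping matches, GAAAGAGAAA from base -83 and GAAACCGAAA from base -77 counted from the start. In *Stat2* they are TTTCAGTTTC, the core read on the other strand, from base -222. The IFN-γ activated site (TTC, any 3 bases and GAA) was present as TTCTTAGAA at base -154 of *Socs3*, and as TTCCTGGAA and TTCTTGGAA at bases 1 and 12 of *Cish*. The windows of *Jak1*, *Jak2* and *Stat3* held neither motif, and *Socs2* and *Usp18* had no window. Of 32851 windows from 250 bases before to 50 after a start, 3.44% held the ISRE core and 8.3% the IFN-γ activated site. A match is a pattern of letters, and binding was not tested.

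In β-cells, cytokines raised 7 of the 9 genes and lowered *Socs2*. *Socs1* rose 40.6-fold, *Stat2* 7.74-fold and *Usp18* 5.65-fold, while *Socs2* was 3.56-fold lower. Calls were common in this comparison, since 46.2% of the 12778 genes tested were called, 23.8% higher and 22.5% lower. The median log2 difference of the 9 genes was 0.91, against 0.00 over all genes tested. Scaling by total UMIs shifted the median of all genes to -0.22 and left 1969 genes higher and 3925 lower, against 3038 and 2871 with TMM.

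**Figure D1:**
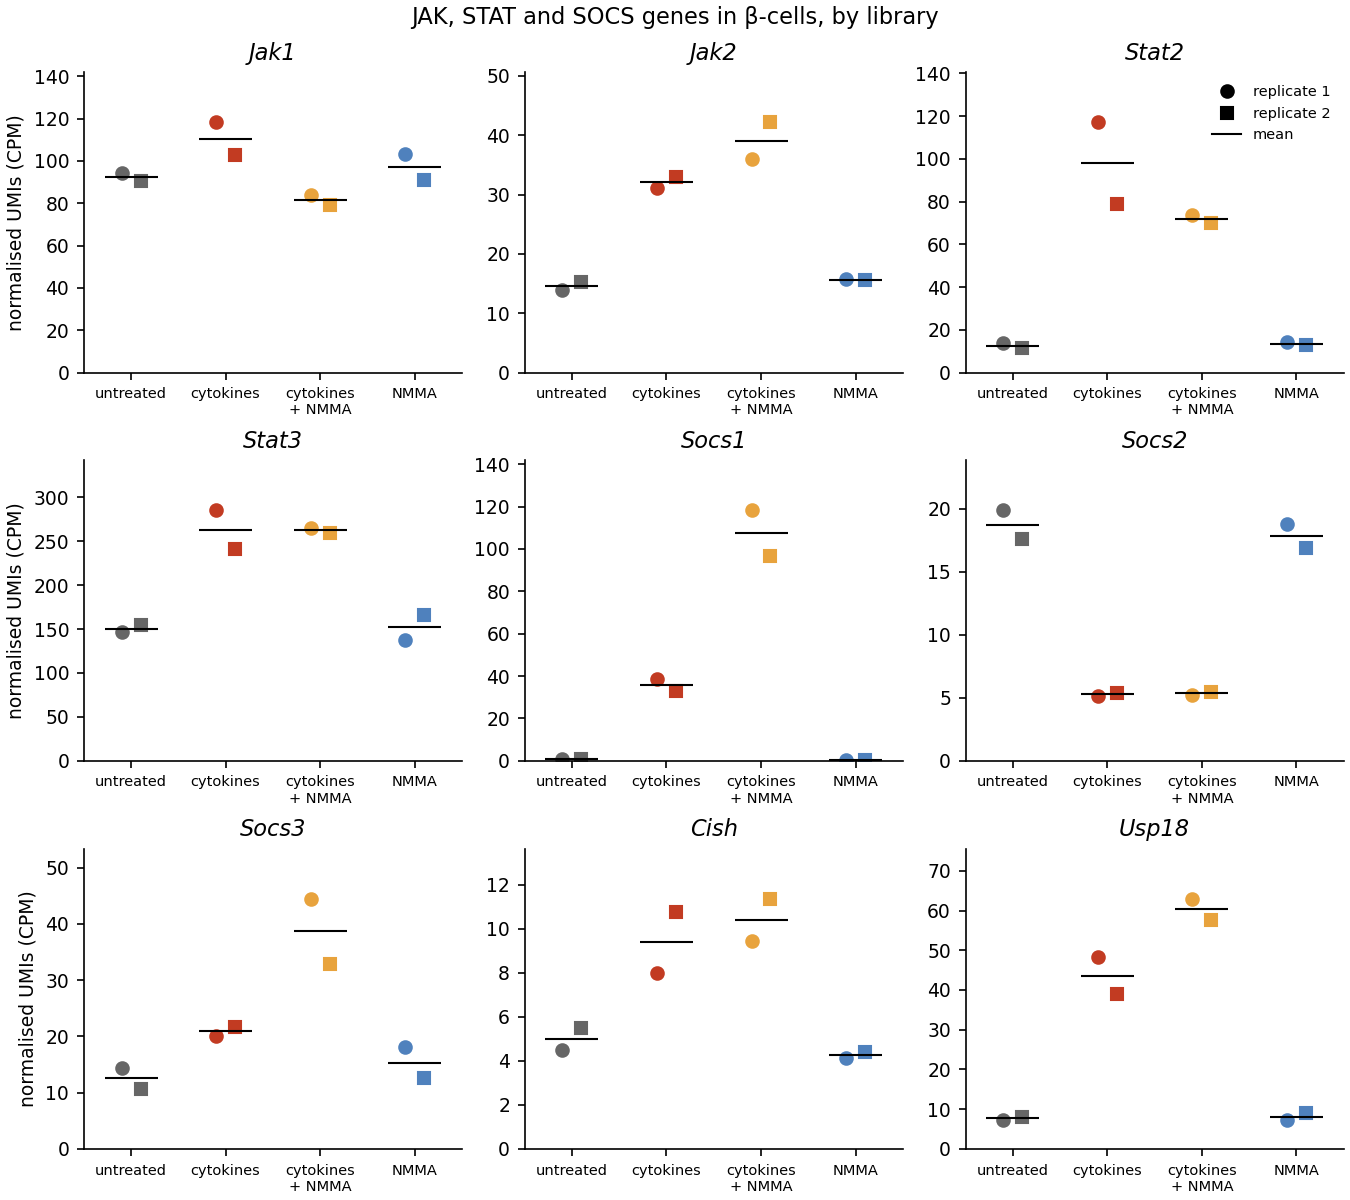
Levels of the 9 genes in β-cells (CPM) in each of the 8 libraries by condition, with marks for the replicates and a line at the mean of each condition. *Socs1* lay at 0.254 to 0.971 CPM without cytokines, at 33 to 38.6 CPM with cytokines and at 96.7 to 118 CPM with cytokines and NMMA, and *Socs2* was low in all 4 libraries with cytokines.

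*Jak2*, which binds the IFN-γ receptor, was at 14 and 15.2 CPM in untreated β-cells and at 31.2 and 32.9 CPM with cytokines. The groups did not overlap, and the log2 difference was 1.14 ± 0.13 (edgeR adjusted p = 0.000194). *Jak1*, the kinase that IFN-γ and IL-6 family receptors share, was at 94.2 and 90.3 CPM untreated and 118 and 103 CPM with cytokines. Both cytokines libraries were above both untreated ones, but the log2 difference of 0.26 ± 0.13 was not called (edgeR adjusted p = 0.135). A fit that blocked on the replicate called it, at 0.26 (adjusted p = 0.0177).

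*Stat2* was at 13.8 and 11.4 CPM in untreated β-cells and at 117 and 78.7 CPM with cytokines, a log2 difference of 2.95 ± 0.20 (edgeR adjusted p = 1.34e-05). The cytokines libraries differed more from each other than the untreated ones, and both lay far above them. *Stat3*, which carries the signals of the IL-6 family, rose from 147 and 154 CPM to 285 and 241 CPM. Its log2 difference was 0.81 ± 0.15 (edgeR adjusted p = 0.00233), again without overlap.

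Among the inhibitors, *Socs1* was at 0.971 and 0.725 CPM in untreated β-cells, from 35 and 12 UMIs. With cytokines it was at 38.6 and 33 CPM, from 1009 and 490 UMIs, a log2 difference of 5.34 ± 0.22 (edgeR adjusted p = 9.43e-07). The groups were far apart in both replicates. *Socs2* moved the other way, from 19.9 and 17.6 CPM to 5.17 and 5.38 CPM. Its log2 difference was -1.83 ± 0.15 (edgeR adjusted p = 3.23e-05), with the replicates close together on both sides. *Cish*, whose protein acts on the same receptors as SOCS2, rose in the same cells. It was at 4.5 and 5.5 CPM untreated and 8.0 and 10.8 CPM with cytokines, a log2 difference of 0.91 ± 0.20 (edgeR adjusted p = 0.00598), and lost its call without untreated replicate 1 (0.77). *Socs3* was at 14.4 and 10.6 CPM untreated and 20.1 and 21.7 CPM with cytokines, and its log2 difference of 0.73 ± 0.23 was called (edgeR adjusted p = 0.0262). That call was lost with total UMI scaling (0.51), and without cytokines replicate 1 (0.78), cytokines replicate 2 (0.68) or untreated replicate 2 (0.53).

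*Usp18*, a protease that removes ISG15 and also blocks the type I interferon receptor, was at 7.41 and 8.09 CPM untreated and 48.3 and 39 CPM with cytokines. The log2 difference was 2.5 ± 0.16 (edgeR adjusted p = 1.18e-05), and the groups did not overlap.

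Adding NMMA to the cytokines raised *Socs1* further in β-cells. *Socs1* was at 118 and 96.7 CPM with cytokines and NMMA, from 2215 and 1183 UMIs, and was 3.0-fold lower with cytokines alone. The log2 difference of cytokines against cytokines with NMMA was -1.58 ± 0.17 (edgeR adjusted p = 0.00183), and it was called with any single library left out. In this comparison 3 of the 9 genes were called, against 19.4% of all genes tested. *Socs3* was the other inhibitor called lower without NMMA. It was at 44.5 and 32.9 CPM with cytokines and NMMA, a log2 difference of -0.89 ± 0.22 (edgeR adjusted p = 0.0255). The *Socs3* call was lost without cytokines replicate 1 (-0.83), cytokines replicate 2 (-0.93) or cytokines with NMMA replicate 1 (-0.65).

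*Jak1* was called in the opposite direction, at 84 and 79.1 CPM with cytokines and NMMA, which was below both cytokines libraries. Its log2 difference was 0.44 ± 0.13 (edgeR adjusted p = 0.0467). This call was lost with total UMI scaling (0.23, adjusted p = 0.237) and without a low-count filter (0.43). It was also lost with each of the 8 libraries left out in turn (0.33 to 0.55).

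*Usp18* was at 63 and 57.6 CPM with cytokines and NMMA, above both cytokines libraries. Its log2 difference of -0.47 ± 0.15 was not called (edgeR adjusted p = 0.0567). *Stat2* was at 73.7 and 69.8 CPM and *Jak2* at 35.9 and 42.2 CPM, with log2 differences of 0.45 ± 0.18 and -0.28 ± 0.13 that were not called either (edgeR adjusted p = 0.119 and 0.15). A fit that blocked on the replicate called all 3, with adjusted p = 0.00341 for *Usp18*, 0.00433 for *Stat2* and 0.0354 for *Jak2*, which brought the count to 6 of 9. With the block 5212 of all genes were called, against 2477 without it. With total UMI scaling *Jak2* (-0.50) and *Usp18* (-0.68) were called too, where the median of all genes moved to -0.23 and 399 genes were called higher and 2360 lower, against 1154 and 1323 with TMM. *Stat2* was called without cytokines replicate 2 (0.72) and without a low-count filter (0.45). *Usp18* was also called without that filter (-0.47) and with doublets removed (-0.47). *Stat3* (265 and 259.8 CPM), *Socs2* (5.23 and 5.48 CPM) and *Cish* (9.44 and 11.4 CPM) lay near or within the range of the cytokines libraries and were not called. The sign of their log2 differences changed between settings.

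Against untreated β-cells, cytokines with NMMA raised *Jak2*, *Stat2*, *Stat3*, *Socs1*, *Socs3*, *Cish* and *Usp18* and lowered *Socs2*, where 12.9% of all genes were called higher and 9.74% lower. The log2 difference of *Socs1* was 6.93 ± 0.23, a rise of 122-fold (edgeR adjusted p = 2.35e-07). That of *Usp18* was 2.96 ± 0.16, and that of *Socs3* was 1.62 ± 0.23 (edgeR adjusted p = 4.39e-06 and 0.00108). *Socs2* stood at -1.81 ± 0.15 (edgeR adjusted p = 4.99e-05). The calls of *Stat3* and *Cish* were lost without untreated replicate 1 (0.77 and 0.92). NMMA alone gave no call among the 9 genes in edgeR's quasi-likelihood test, which called 0% of the 12778 genes (930 had an unadjusted p under 0.05), and DESeq2 called 14 genes and none of the 9. The replicate block called 440 genes for NMMA alone, and the fit without a low-count filter 121, again none of the 9. *Socs1* was lowest with NMMA alone, at 0.254 and 0.436 CPM from 5 and 7 UMIs, a log2 difference from untreated of -1.36 ± 0.33 (edgeR adjusted p = 0.478).

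The same order appeared in the share of β-cells with a *Socs1* UMI after each cell was thinned to 4500 UMIs, which removes differences in depth between cells. The share was 0.302% (95% interval 0.0982 to 0.704%) and 0.362% (95% interval 0.0439 to 1.3%) in the untreated libraries. With cytokines it was 11.8% (95% interval 10 to 13.9%) and 11.7% (95% interval 9.01 to 14.7%). With cytokines and NMMA it was 33% (95% interval 29.4 to 36.8%) and 30.8% (95% interval 26.3 to 35.5%), so most thinned β-cells still had no *Socs1* UMI. With NMMA alone it was 0 of 671 and 0 of 573 cells, which allows shares of up to 0.447% and 0.524% by a limit of 3 counts, and of 0.548% and 0.642% by the exact upper bound. The 95% intervals are exact (Clopper-Pearson) and cover counting error only, and the untreated share serves as the background. Thinning left out 242 shallower β-cells. The unthinned shares, at median depths of 20370 to 29460 UMIs, averaged 1.90% in untreated islets, 37.3% after cytokines, 63.8% after cytokines plus NMMA, and 0.937% after NMMA only.

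A cluster of β-cells led by *Hspa1a*, with 40 to 143 cells per library, held less *Socs1*, *Socs3*, *Stat2*, *Stat3* and *Usp18* than the other β-cells in all 4 libraries with cytokines. These values are CPM of total UMIs, without TMM, and a description with no test, because expression defined the cluster. *Socs1* was at 4.2 and 5.68 in these cells with cytokines and at 36 and 33 in the other β-cells. With cytokines and NMMA it was at 13 and 10.7 against 127 and 112. *Usp18* with cytokines was at 8.4 and 4.26 against 44.9 and 39.4. *Stat2* was at 52.5 and 14.7 against 107 and 78.7, and *Stat3* at 136 and 105 against 260.3 and 233. *Stat3*, *Usp18* and *Socs3* were also lower in the cluster in all 4 libraries without cytokines, whereas *Stat2* lay on both sides. In untreated islets *Stat3* was at 122 and 106 against 150.4 and 171. *Usp18* was at 1.7 and 6.2 (1 and 11 UMIs) against 7.67 and 8.91, and *Socs3* at 6.78 and 10.7 (4 and 19 UMIs) against 14.9 and 11.4. *Jak1* was lower in the cluster in every library except cytokines with NMMA replicate 1 (86.7 against 85.9). *Jak2* and *Cish* did not follow in every library. *Jak2* was at 35 and 15.6 against 27.4 and 31.5 with cytokines, and *Cish* at 13.9 and 8.24 against 9.4 and 12.4 with cytokines and NMMA. *Socs2* with cytokines was at 14.7 and 9.46 against 4.09 and 4.15. In untreated islets it was at 6.78 and 7.33 in the cluster (4 and 13 UMIs) against 20.5 and 20.2, so within the cluster *Socs2* was not lower with cytokines. Without this cluster the counts of called genes in β-cells stayed at 8, 3, 8 and 0 in the 4 comparisons. These counts are not read as particular to the 9 genes.

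**Figure D2:**
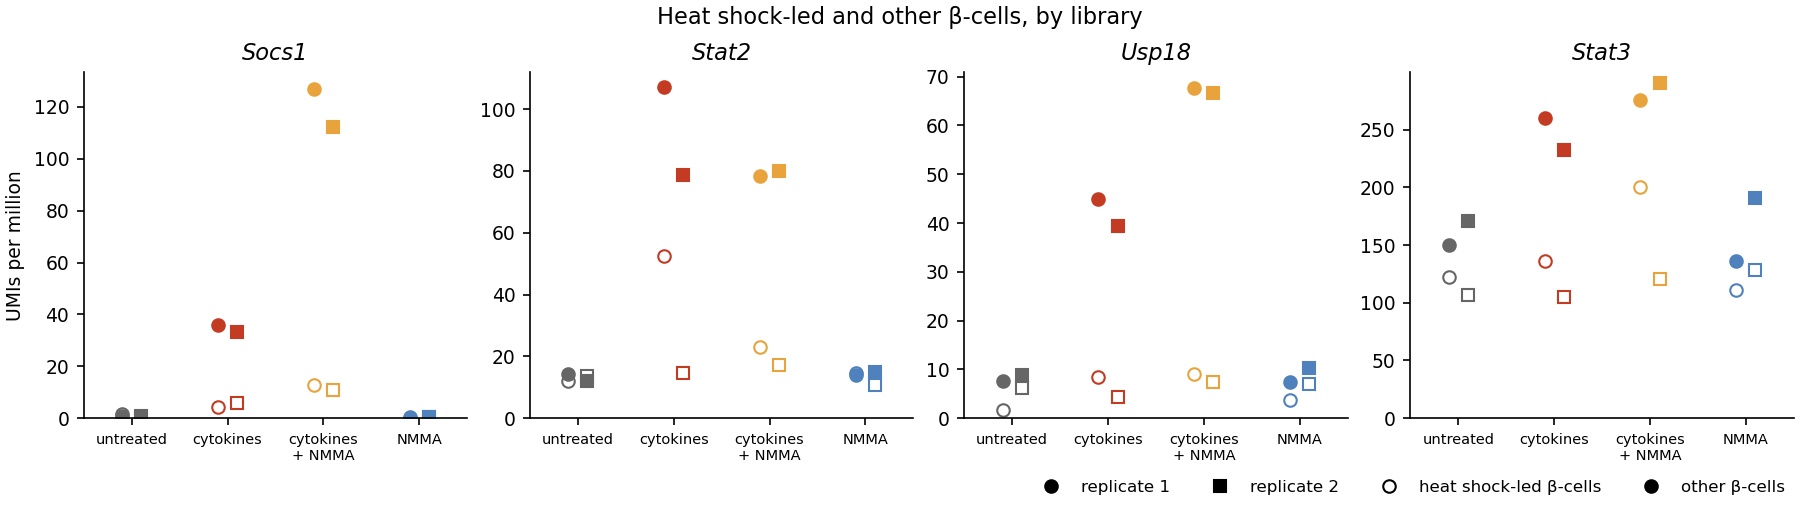
Levels in β-cells of the *Hspa1a*-led cluster and in all other β-cells (CPM of total UMIs) in each library, for *Socs1*, *Stat2*, *Usp18* and *Stat3*, with open points for the cluster and filled points for the other cells. In both cytokines libraries *Socs1* is at 4.2 and 5.68 in the cluster and at 36 and 33 outside it.

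*Socs1* was the only one of the 9 genes called in all 6 cell classes with cytokines, with log2 differences from untreated of 4.42 to 6.28. *Stat2* was called higher in 5 of 6 classes, *Jak2* and *Stat3* in 4 of 6 each, and *Socs3* in 3 of 6. *Usp18* was called in 3 of 5 classes tested, *Cish* in 2 of 4 and *Jak1* in 1 of 6. *Socs2* was called lower in β-cells alone among 6 classes. Classes differ in cell number, and a missing call does not show that a gene did not change. In most classes the conditions also lay in different clusters, although the clustering left out the 9 genes. Of the cells with cytokines, 10 of 1710 β-, 1 of 122 α- and 2 of 11 δ-cells, 28 of 73 macrophages, 1 of 38 endothelial and 36 of 36 mesenchymal cells lay in a cluster that held at least 10% of the untreated cells of that class. The *Hspa1a*-led clusters were below that share but held cells of both conditions. By replicate, that of α-cells held 49 and 58 cells with cytokines and 6 and 10 untreated. That of β-cells held 65 and 103 with cytokines and 40 and 109 untreated.

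**Figure D3:**
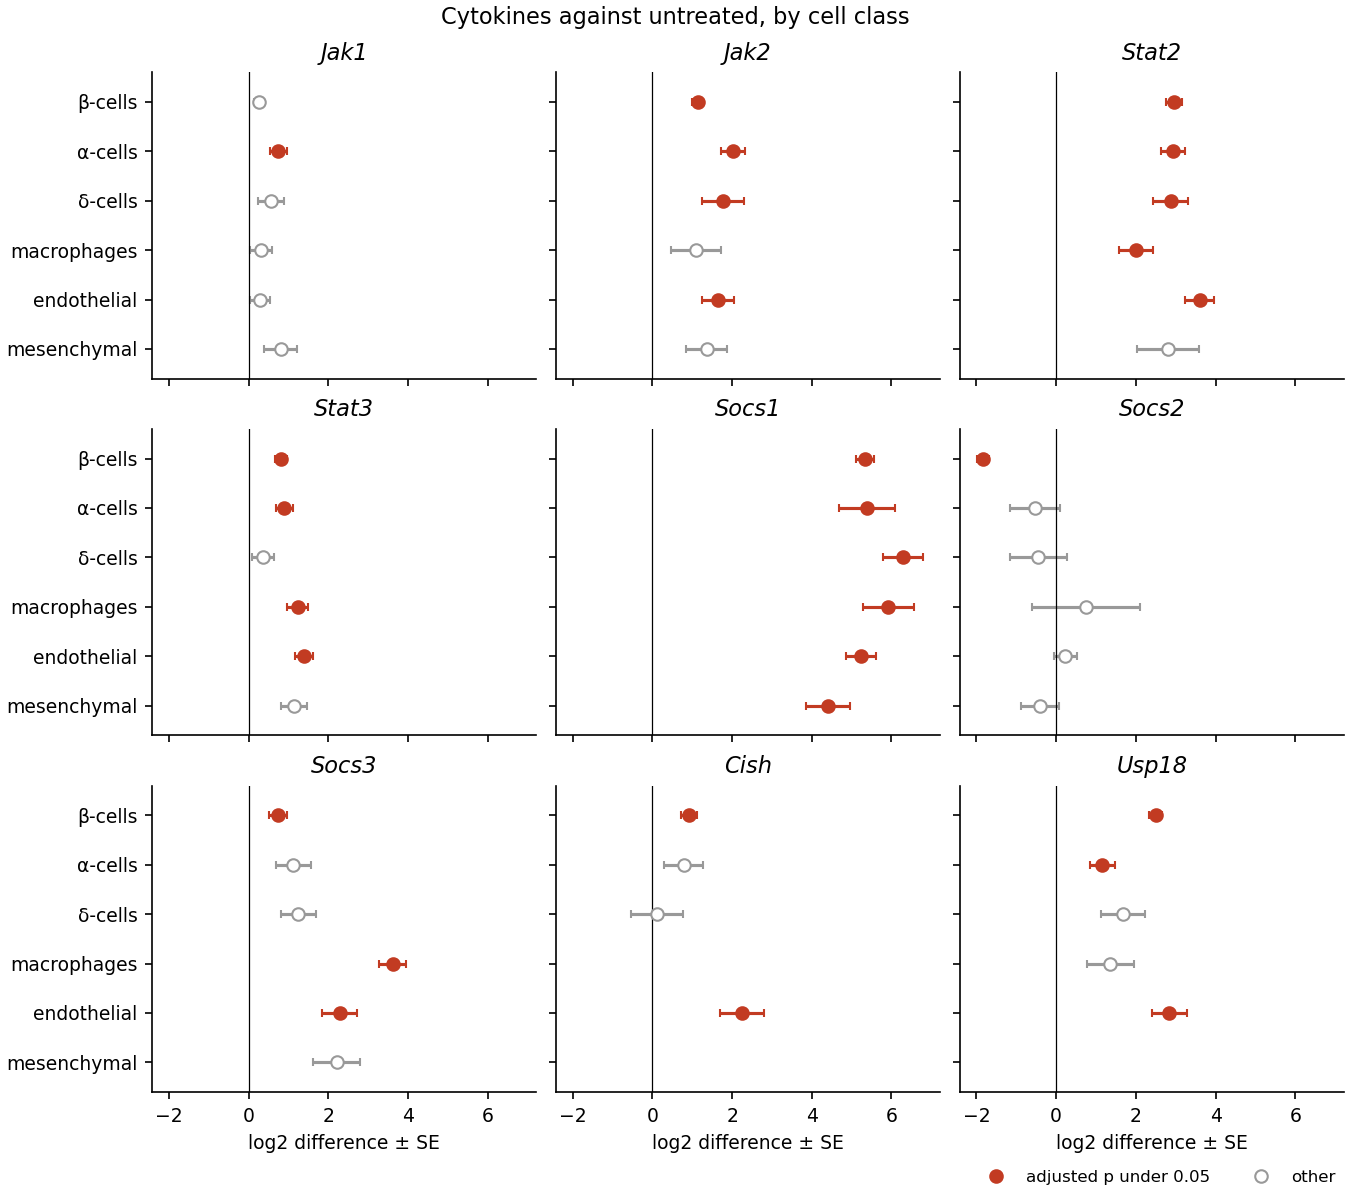
Log2 difference of cytokines against untreated for each of the 9 genes in each cell class, with SEs, and with called differences marked. *Socs1* is at 4.42 to 6.28 in all 6 classes, and *Socs2* is called only in β-cells, at -1.83.

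In α-cells 6 of the 9 genes were called higher with cytokines, against 13% of all genes. *Socs1* was at 0.712 and 2.51 CPM untreated (1 and 5 UMIs) and at 36.2 and 110.0 CPM with cytokines, a log2 difference of 5.39 ± 0.70 (edgeR adjusted p = 0.00145). The cytokines libraries lay far apart, and both were above the untreated ones. *Jak2* rose from 10.7 and 14.6 CPM to 62.9 and 44.2 CPM and *Stat2* from 13.5 and 9.53 CPM to 101 and 75 CPM, log2 differences of 2.02 ± 0.31 and 2.93 ± 0.31. *Jak1* (0.74 ± 0.22), *Stat3* (0.9 ± 0.21) and *Usp18* (1.16 ± 0.32) were called as well, and each of these 3 lost its call with total UMI scaling, which left 3 of 9. That scaling moved the median of all genes in α-cells to -0.50, with 630 genes called higher and 2508 lower, against 1286 and 834 with TMM. The calls of *Jak1*, *Stat3* and *Usp18* also rested on single libraries. *Jak1* was lost without untreated replicate 1 (0.80), untreated replicate 2 (0.66) or cytokines replicate 1 (0.58). *Stat3* was lost without untreated replicate 1 (0.80) or cytokines replicate 1 (0.67). *Usp18* was lost without untreated replicate 1 (1.07), untreated replicate 2 (1.24) or cytokines replicate 2 (0.54). *Socs3* in α-cells was called only with the replicate block (1.22, adjusted p = 0.000418, against 1.12 and 0.114 without).

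Nearly all α-cells with cytokines belonged to the *Hspa1a*-led clusters, and without those cells 15 α-cells of 1 library remained for that condition. *Jak1* (0.50), *Jak2* (1.35) and *Stat3* (0.71) then lost their calls, and calls over all genes were fewer too. In cytokines replicate 2, *Socs1* was at 50.2 CPM of total UMIs in the *Hspa1a*-led α-cells and at 231 in the other 15.

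δ-cells, which lay mostly in another cluster with cytokines than without, had 3 calls, against 4.69% of all genes called higher. *Socs1* was at 4.0 and 0 CPM untreated and 201 CPM in the single cytokines library (6.28 ± 0.50, edgeR adjusted p = 1.59e-08). Without untreated replicate 1, which left an untreated library at 0 UMIs, the fitted value was 9.96. *Stat2* (2.88 ± 0.44) and *Jak2* (1.77 ± 0.52) were the others. The spread of that lone library was taken from the other groups, and the *Jak2* call was lost without untreated replicate 2 (1.45), cytokines with NMMA replicate 1 (1.70) or cytokines with NMMA replicate 2 (1.70). With cytokines and NMMA, for which 2 libraries were present, *Socs2* was at 9.58 and 9.79 CPM (9 and 6 UMIs). Untreated it was at 26 and 26.2 CPM (26 and 17 UMIs). *Socs2* was called lower with cytokines and NMMA (-1.41 ± 0.44, edgeR adjusted p = 0.0432), as were 2.8% of all genes. No alternative was examined for this call. *Socs3* was called in δ-cells with cytokines only with the replicate block (1.58, adjusted p = 0.0143).

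Macrophages had 4 calls among the 8 genes tested, against 3.53% of all genes called higher, and *Cish* had too few UMIs to be tested. *Socs3* was at 16.6 and 12.5 CPM untreated and 168 and 184 CPM with cytokines, a log2 difference of 3.62 ± 0.34 (edgeR adjusted p = 6.55e-06). *Socs1* was at 0 and 9.71 CPM untreated (0 and 7 UMIs) and 445 and 340.1 CPM with cytokines (5.92 ± 0.65, edgeR adjusted p = 0.00102). Neither gene's groups overlapped. Without untreated replicate 2 the fitted *Socs1* difference was 10.31, where the untreated cells left had 0 UMIs and the value depends on the prior count. *Stat2* (2.0 ± 0.41) and *Stat3* (1.23 ± 0.26) were called too, but *Stat2*, at 3.22 without untreated replicate 2, not without untreated replicate 1 (1.56) and *Stat3* not without untreated replicate 1 (1.15), untreated replicate 2 (1.36) or cytokines replicate 2 (1.17).

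Endothelial cells, which with cytokines formed a cluster apart from the untreated ones, had 7 calls, against 4.58% of all genes called higher. *Socs1* rose from 7.71 and 7.04 CPM to 248 and 321 CPM (5.24 ± 0.37, edgeR adjusted p = 3.51e-08). *Stat2* rose from 19.3 and 9.85 CPM to 164 and 181 CPM (3.6 ± 0.37, edgeR adjusted p = 2.51e-06). The groups were well apart for both. *Usp18* (2.84 ± 0.45) and *Stat3* (1.39 ± 0.24) were called with any library left out. *Socs3* rose from 82.9 and 28.2 CPM to 322 and 212 CPM (2.29 ± 0.44) and lost its call without cytokines replicate 1 (2.0). *Cish* (2.25 ± 0.56) lost it without untreated replicate 1 (1.75) or cytokines replicate 1 (1.83) and stood at 3.41 without untreated replicate 2, and *Jak2* (1.64 ± 0.39) without untreated replicate 1 (1.32) or cytokines replicate 2 (1.08). *Socs2* was at 71.3 and 109.8 CPM untreated and 94.3 and 118 CPM with cytokines, overlapping ranges and no call.

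In mesenchymal cells 1 of 7 genes tested was called, *Socs1*, against 1.69% of all genes called higher. It rose from 3.42 and 12.1 CPM to 199 and 175 CPM (4.42 ± 0.55, edgeR adjusted p = 0.00156). *Socs3* was at 13.7 and 24.2 CPM and 118 and 70.6 CPM without overlap, and was called only with the replicate block (2.15, adjusted p = 0.0332).

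**Figure D4:**
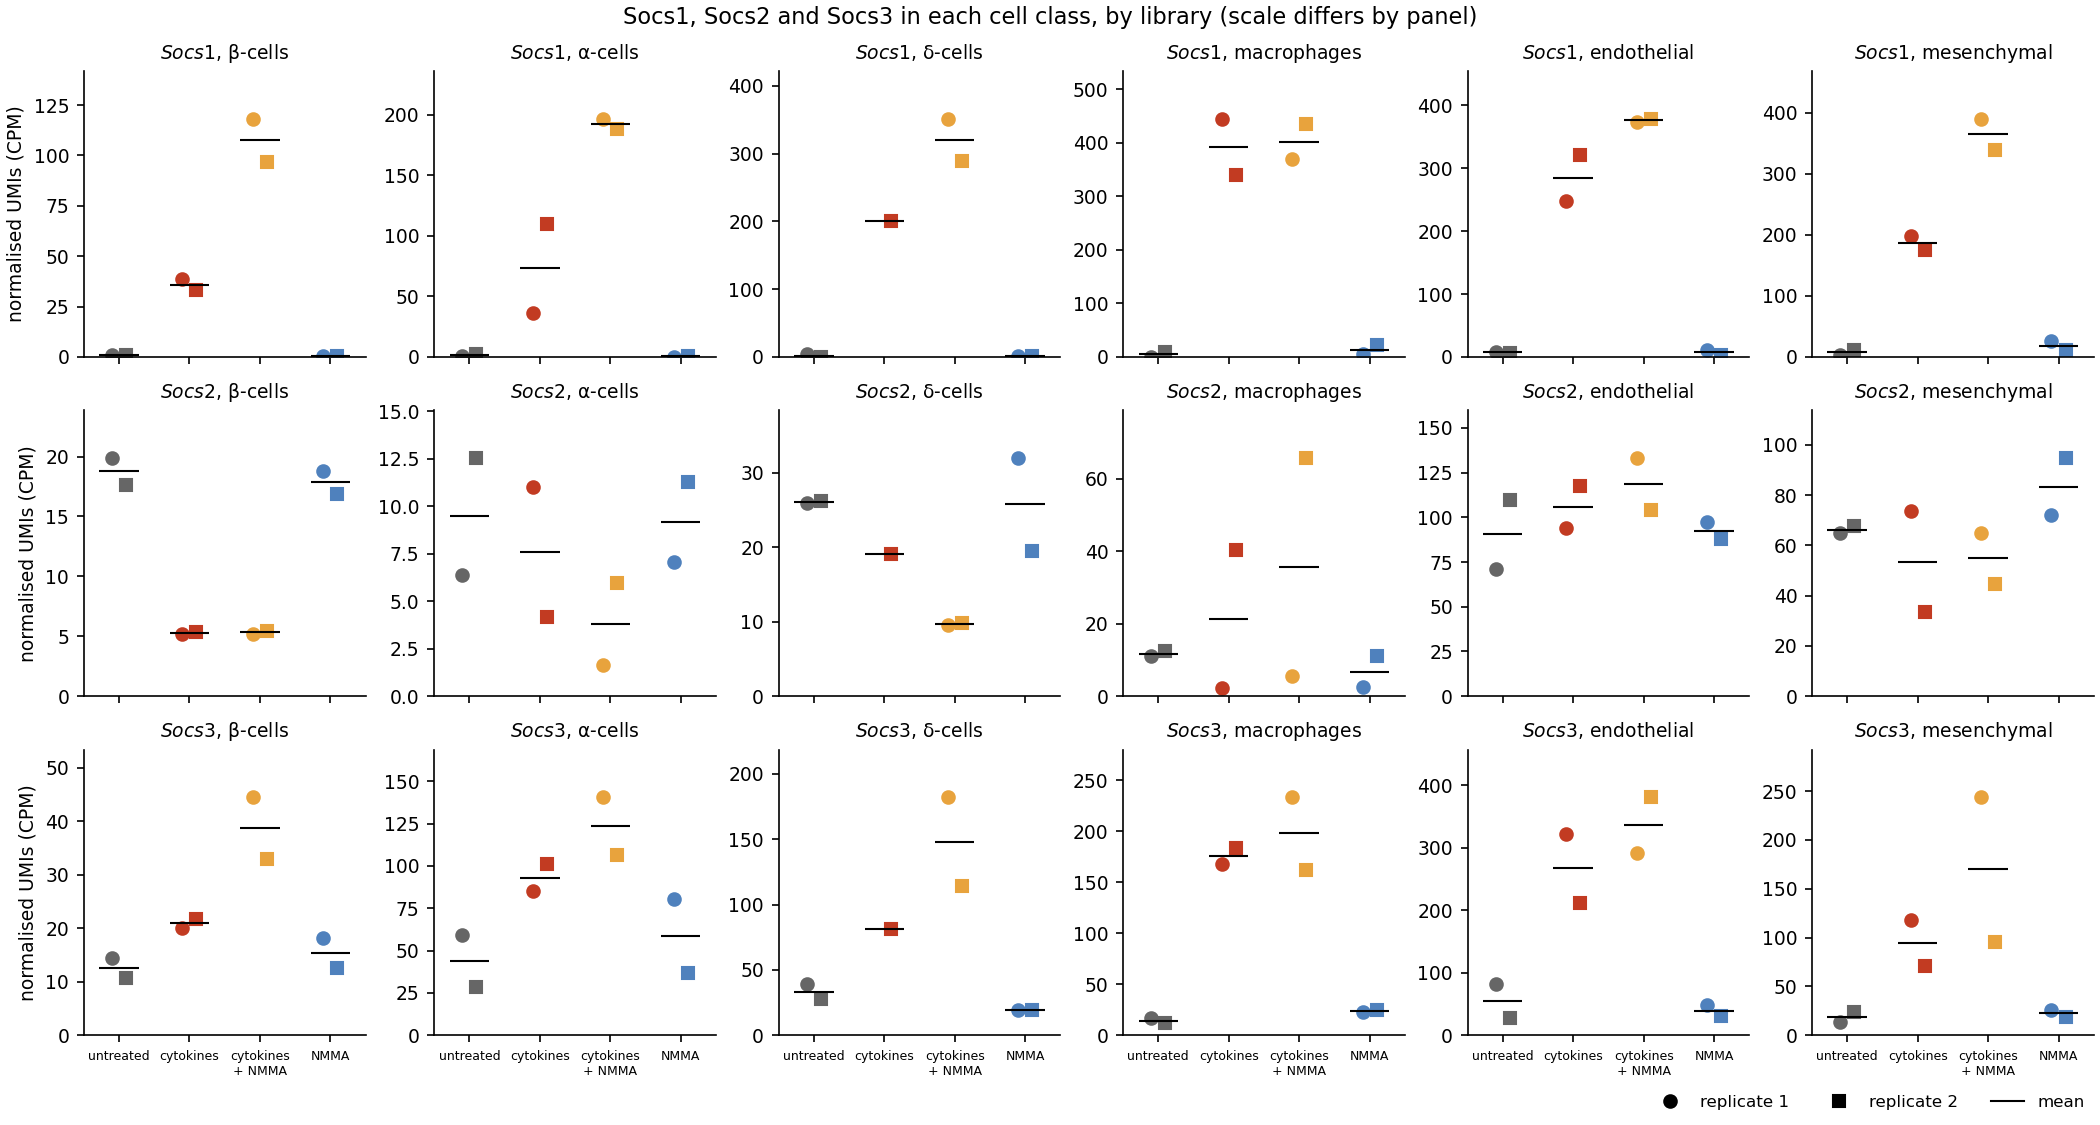
Levels of *Socs1*, *Socs2* and *Socs3* (CPM, linear axes from 0 that differ by panel) in each cell class and condition, with 1 point per library and a line at the mean, where δ-cells with cytokines have a single library. *Socs3* rises to 168 to 184 CPM in macrophages and to 20.1 to 21.7 CPM in β-cells with cytokines.

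Whether a response differed between cell types was tested directly, as the class difference in the log2 change with cytokines, each class minus β-cells. Of 45 such tests on the 9 genes 5 were called. The 45 include *Cish* in macrophages and *Cish* and *Usp18* in mesenchymal cells. These did not pass the filter in their own class, were tested here only in fits that include β-cells, and gave no call. *Socs3* rose more in macrophages than in β-cells, by 2.81 ± 0.46 (edgeR adjusted p = 1.19e-07), and more in endothelial cells, by 1.73 ± 0.32 (edgeR adjusted p = 5.07e-06). Both held with any library left out. *Socs2*, which fell in β-cells, had a response higher by 2.20 ± 0.36 in endothelial cells (edgeR adjusted p = 1.8e-07), also with any library left out. Of all genes tested, 0.795% were called higher in macrophages and 2.65% in endothelial cells. The *Socs2* response was higher in macrophages as well, by 2.43 ± 0.71 (edgeR adjusted p = 0.0195), but this rested on 1 library. *Socs2* in macrophages was at 2.23 and 40.5 CPM with cytokines (1 and 15 UMIs), and without replicate 2 of that group the difference was -0.64. Its call was also lost without untreated replicate 1 (2.24) or untreated replicate 2 (2.71), and when these genes were included in the clustering (0.48).

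*Usp18* rose less in α-cells than in β-cells, by -1.25 ± 0.34 (edgeR adjusted p = 0.0243; 2.05% of all genes were called lower). It was at 14.2 and 16.1 CPM in untreated α-cells and 22 and 42.5 CPM with cytokines. The call was lost without untreated replicate 1 (-1.28), untreated replicate 2 (-1.23) or cytokines replicate 1 (-0.80), and without the *Hspa1a*-led cells (-0.44, adjusted p = 0.745). No difference was called in δ- or mesenchymal cells, where edgeR called 3.27% and 1.67% of all genes.

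Outside β-cells, NMMA with the cytokines gave 1 call among the 9 genes. *Usp18* in α-cells was at 22 and 42.5 CPM with cytokines and 55.7 and 71.2 CPM with NMMA added, a log2 difference of -0.89 ± 0.27 (edgeR adjusted p = 0.0445; 5.04% of all genes were called lower). The call was lost in 7 of 8 fits that left out a library (-0.58 to -1.07), held only without cytokines replicate 2 (-1.51), and was lost without the *Hspa1a*-led cells (-0.08). With the replicate block *Socs1* (-1.38, adjusted p = 0.00452) and *Jak2* (0.79, adjusted p = 0.0201) were called in α-cells too. *Socs1* there was at 36.2 and 110.0 CPM with cytokines and 197 and 188 CPM with NMMA added. Outside the *Hspa1a*-led cluster it was at 231 CPM of total UMIs with cytokines (15 cells of replicate 2). With NMMA added it was at 224 and 196 there. Inside the cluster it was at 26.9 and 50.2 with cytokines and at 65 in 11 cells of cytokines with NMMA replicate 1. The part of the cluster in this difference was not tested. In δ-cells, macrophages, endothelial and mesenchymal cells none of the 9 genes was called by edgeR or by DESeq2. Over all genes edgeR called 2.86%, 0.0359%, 0% and 0% in these 4 classes, with 1417, 332, 366 and 175 genes at an unadjusted p under 0.05.

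The response of *Socs1* to NMMA was called different from that of β-cells in macrophages and endothelial cells. In α-, δ- and mesenchymal cells the differences from β-cells (0.25, 0.87 and 0.61) were not called. In macrophages it was at 445 and 340.1 CPM with cytokines and 369 and 435 CPM with NMMA added, overlapping ranges. In endothelial cells it was at 248 and 321 CPM and 374 and 378 CPM. The log2 difference of cytokines against cytokines with NMMA was higher than in β-cells by 1.5 ± 0.31 in macrophages and by 1.24 ± 0.27 in endothelial cells (edgeR adjusted p = 0.000604 and 0.00126). Of all genes, 0.332% and 0.98% were called higher. This test was added after the values were seen. The macrophage call was lost without cytokines replicate 1 (1.42) or cytokines with NMMA replicate 1 (1.22), and the endothelial call without cytokines replicate 2 (0.90) or cytokines with NMMA replicate 1 (1.06). *Jak2* differed in α-cells, by 1.08 ± 0.27 (edgeR adjusted p = 0.0158; 0.963% of all genes were called higher). It was at 62.9 and 44.2 CPM with cytokines and 24.8 and 34.4 CPM with NMMA added, the opposite order to β-cells. That call was lost with total UMI scaling (0.95), without cytokines replicate 1 (0.82) or cytokines with NMMA replicate 1 (1.01), and without the *Hspa1a*-led cells (0.33). These were 3 calls in 45 tests, which again include *Cish* in macrophages and *Cish* and *Usp18* in mesenchymal cells, with no call.

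**Figure D5:**
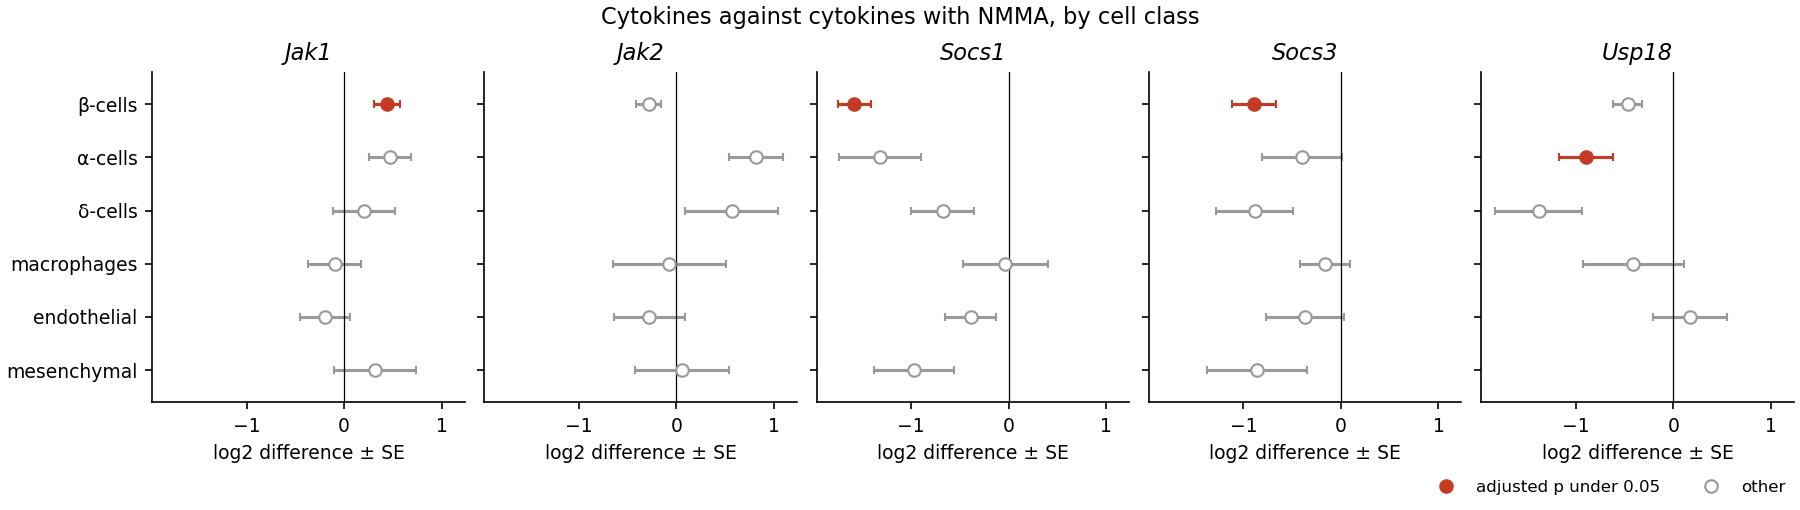
Log2 difference of cytokines against cytokines with NMMA for *Jak1*, *Jak2*, *Socs1*, *Socs3* and *Usp18* in each cell class where the gene was tested, with SEs and with called differences marked. The other genes of the 9 are not drawn. *Socs1* is at -1.58 in β-cells and at -0.04 in macrophages.

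Some of the 9 genes differed in level between classes in untreated islets. Of 45 class differences from β-cells in untreated islets 21 were called with TMM scaling and 19 with total UMIs, and 14 were called with both in the same direction. The 21 include *Cish* in macrophages (-2.81), which did not pass the filter in its own class and had 1 and 0 UMIs untreated. It is not among the 14. Such calls were frequent, at 29.8% of all genes in α-cells, 22.2% in δ-cells, 44.2% in macrophages, 54.8% in endothelial and 32.9% in mesenchymal cells. The count is therefore not read as particular to these 9 genes, and no difference of *Jak2* or *Stat2* was among the 14. *Socs3* was higher in α-cells than in β-cells by 1.34 ± 0.19 on the log2 scale (edgeR adjusted p = 2.05e-08), and *Jak1* was lower at -0.99 ± 0.14 (edgeR adjusted p = 6.44e-08). *Stat3* was lower in macrophages, at -1.64 ± 0.26 (edgeR adjusted p = 1.91e-09). These 3 held with any library left out. *Socs2* was higher in endothelial cells by 1.24 ± 0.23 and lost its call without untreated replicate 2 (0.76). *Cish* was higher in δ-cells by 1.41 ± 0.33 and lost its call without untreated replicate 1 (1.34).

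Beyond the 9 genes, 33 others of the pathway (further kinases, STATs, inhibitors, phosphatases and receptors) were counted from a list. In β-cells with cytokines, 11 of the 31 tested were called higher and 5 lower, with a median log2 difference of 0.17, beside 23.8% and 22.5% of all genes. In α-cells 8 of 28 were called higher and 1 lower, beside 13% and 8.4% of all genes. In δ-cells the counts were 2 and 1 of 25, beside 4.69% and 2.01%. They were 2 and 0 of 20 in macrophages, beside 3.53% and 0.753%, 5 and 0 of 25 in endothelial cells, beside 4.58% and 1.75%, and 1 and 0 of 14 in mesenchymal cells, beside 1.69% and 0.114%. *Ifngr2*, a chain of the IFN-γ receptor, rose in β-cells from 5.13 and 4.53 CPM to 27.6 and 26.5 CPM (2.48 ± 0.25, edgeR adjusted p = 0.000105). *Irf9*, the partner of STAT2, rose from 9.85 and 12 CPM to 64.5 and 53.4 CPM (2.44 ± 0.20, edgeR adjusted p = 3.04e-05). *Osmr*, the oncostatin M receptor, had 1 and 2 UMIs untreated and 23 and 25 with cytokines (edgeR adjusted p = 0.00146).

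The receptors that SOCS2 and CISH restrain fell in β-cells with *Socs2*. *Prlr*, the prolactin receptor, fell from 135 and 126 CPM to 26.1 and 28.7 CPM (-2.25 ± 0.14, edgeR adjusted p = 1.09e-05). With NMMA added it was at 49.4 and 55.8 CPM, between both groups, and the log2 difference of cytokines against cytokines with NMMA was -0.94 ± 0.14 (edgeR adjusted p = 0.00368). *Ghr*, the growth hormone receptor, fell from 115 and 119 CPM to 70.7 and 65.3 CPM (-0.78 ± 0.12, edgeR adjusted p = 0.000836).

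Across 47 class and library sums, the gene whose log level was most like that of *Socs1* among 8719 was *Irgm1* (Pearson r = 0.95), and for *Stat2* it was *Cd274* (r = 0.94). For *Usp18* it was *Dtx3l* (r = 0.87), for *Socs3* *Irf1* (r = 0.85), for *Jak2* *Gbp5* (r = 0.84) and for *Jak1* *Gnb1* (r = 0.87). For *Socs2* it was *Ednrb* (r = 0.81), for *Stat3* *Wars* (r = 0.80) and for *Cish* *Upp1* (r = 0.77). The sums share libraries, pools and depth, and these values are a description.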

How the data were processed

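The authors deposited raw UMI counts per gene and barcode for each library, made with Cell Ranger on mm10 per the submitters' notes (version 3.0.0 in the file headers of replicate 1 and 6.0.0 in those of replicate 2). Barcodes with at least 200 genes, at most 5500 (replicate 1) or 6500 (replicate 2) genes and at most 10% mitochondrial UMIs were kept. Cells were clustered (scanpy 1.11.5, Python 3.11.15) without the 9 genes and 33 other pathway genes, and classes were named from marker lists. Including the genes left 8145 of 8215 cells in the same class. Doublets (188 cells, 1.73%) were removed only as an alternative, since the automatic threshold marked 14.

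Counts were summed per class and library (at least 10 cells), filtered with filterByExpr, scaled by TMM and tested with edgeR 4.0.16 (R 4.3.3, quasi-likelihood, Benjamini-Hochberg, threshold 0.05). The 4 conditions shared 1 fit. Class differences came from fits of 2 classes with the library as a block. The fits were tested on simulated data, where the share of false calls among all calls exceeded the threshold in most fits, so adjusted p-values near it are less firm than they read. DESeq2 1.42.0, total UMI scaling, no filter, a replicate block, a minimum of 5 cells and leaving out each library were alternatives. Same-numbered libraries come from the same pool of islets, by the study's methods, and their deviations from condition means correlated in β-cells (6 pairs, r = 0.605 to 0.702, 12778 genes). With 2 pools a group, the p-values rest on few replicates.

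The genes and lists were chosen with earlier results of these data known. All 9 genes were described in each class. Of the other pathway genes, the 5 with the largest called change in β-cells with *Prlr* and *Ghr* were to be named, and 1 gene this rule selects is not reported here. For each of the 9, the gene with the highest Pearson r over log2 levels was named. Positions are from GENCODE on GRCm38.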

Additional observations from a re-analysis of the deposited data

Results flagged for a closer look

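Each result here was singled out because a test of the difference between a cell class and β-cells was called by edgeR. Groups of 2 libraries are too small to test whether 1 library stands apart, and none was tested.

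In the response to cytokines against untreated, the log2 change was higher than in β-cells by 2.81 for *Socs3* and 2.43 for *Socs2* in macrophages, and by 1.73 for *Socs3* and 2.20 for *Socs2* in endothelial cells. For *Usp18* in α-cells the difference was -1.25.

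In cytokines against cytokines with NMMA, a comparison of classes added after the data were seen, the differences from β-cells were 1.5 for *Socs1* in macrophages, 1.24 for *Socs1* in endothelial cells and 1.08 for *Jak2* in α-cells.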

How the results depend on the processing

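Of 71 results for single genes, 31 kept their direction and their side of the threshold under every alternative run. Over all alternatives, 954 values kept both, 93 lost a call, 10 gained one and 12 changed sign. Every gene was included for the β-cell comparisons other than NMMA alone. Elsewhere only results already called were included (untreated levels where called with both scalings). Those could lose a call but not gain one. In β-cells, cytokines against cytokines with NMMA, *Stat3* changed sign with total UMI scaling (-0.21), no filter (-0.0028), doublets removed (-3.7e-05), without cytokines replicate 1 (-0.12) and without cytokines with NMMA replicate 2 (-0.0081). *Socs2* did so without cytokines replicate 1 (0.010), untreated replicate 2 (0.0051) and cytokines with NMMA replicate 2 (0.015), and *Cish* without cytokines replicate 1 (0.054). Over all fits that left out 1 library, these 3 ranged from -0.12 to 0.13, -0.050 to 0.015 and -0.36 to 0.054. The macrophage response of *Socs2* was -0.64 without cytokines replicate 2 and at most 3.48, without cytokines replicate 1. In untreated islets, without replicate 2, *Socs1* in macrophages was -6.39 and *Usp18* -1.88 against β-cells, where macrophages of replicate 1 held 0 and 1 UMIs, and without replicate 1 they were 3.38 and 1.64.

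The replicate block, which pairs libraries of a pool, raised the count of called genes among the 9 from 3 to 6 in β-cells (cytokines against cytokines with NMMA), from 1 to 3 in α-cells (the same comparison) and from 1 to 2 in mesenchymal cells (cytokines against untreated). Over all genes it raised the calls from 2477 to 5212, from 1060 to 1893 and from 95 to 173. Among the 9 genes it also added the calls of *Jak1* in β-cells and of *Socs3* in α- and δ-cells, and changed no other call.

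With total UMI scaling the α-cell count for cytokines against untreated went from 6 to 3. Without a filter it was 2 in α-cells and 1 in δ-cells for cytokines against cytokines with NMMA, and 3 in mesenchymal cells for cytokines against untreated. Leaving out the heat shock-led cells, an alternative chosen after seeing the data, gave 3 in α-cells for cytokines against untreated and 0 for cytokines against cytokines with NMMA, where calls over all genes went from 2120 to 493 and from 1060 to 29. Leaving out 1 library at a time gave counts of 1 to 2 in β-cells and 0 to 3 in α-cells (cytokines against cytokines with NMMA), 2 to 4 in macrophages and 1 to 2 in mesenchymal cells (cytokines against untreated). The class differences called were then 3 to 6 for the response, 9 to 24 for untreated islets and 0 to 3 for NMMA. Unthinned *Socs1* shares averaged 1.90% in untreated islets, 37.3% after cytokines, 63.8% after cytokines plus NMMA, and 0.937% after NMMA only. With DESeq2, *Jak1* and *Usp18* in α-cells, *Jak2* in δ- and endothelial cells, *Stat3* in macrophages and *Cish* in endothelial cells lost their calls for cytokines against untreated, and *Usp18* in α-cells for NMMA. The causes of these changes were not tested. Where no share of all genes stands beside a count, the count is not read as particular to the 9 genes.

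The cytokines library of δ-cells could not be left out, being the only one. With cytokines, macrophages, endothelial and mesenchymal cells numbered 12 to 39 per library, and the part of cell number in the counts was not tested.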
